A study of Harpegnathos saltator with 14 samples.

Results

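Whole bodies of males and of adult workers of the ponerine ant Harpegnathos saltator were compared in 2 libraries each, 4 of the 14 RNA-seq libraries in the series. The other 10 libraries were from embryos, larvae of instar 1 and instar 4, early pupae and late pupae. A gene entered the comparison when its level reached an RPKM of 1 (reads scaled by the authors to gene length and library size) in at least 2 of these 4 libraries, which 10263 of 20755 gene models did. All animals were kept in plaster nests and fed live crickets, and the labels give no genotype, treatment, age, colony or number of animals per library. The replicates are therefore not known to be separate animals, and the p-values rest on a spread between libraries that may be technical. The labels call the females adult workers and do not say whether any laid eggs.

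In ants, as in bees and wasps, males are haploid and develop from unfertilised eggs, whereas workers are diploid females. Males are winged, carry testes and accessory glands and leave the nest to mate. Workers are wingless, carry ovaries and venom glands, hunt and tend the brood, and in Harpegnathos they can mate and lay eggs in place of a lost queen. In whole bodies, fewer cells of a type and less RNA per cell cannot be told apart. The deposited table holds identifiers and no gene names, and 0 of its identifiers matched the 14329 genes of the reference table for assembly Hsal_v8.6. No function is therefore given to any gene below, and no testis, ovary or gland marker could be looked up to check the labels.

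The male libraries were shallower and less alike than the worker libraries. Reads in genes numbered 5263333 and 4244858 in males and 11821158 and 7472521 in workers. The log2 difference between replicates, taken on log2(RPKM + 1), had an SD over genes of 0.739 in males and 0.314 in workers, and 225 against 10 genes lay at least 4-fold apart. Among these 225, 132 were higher in male replicate 2, with a median level of 181 RPKM there, 21.0 in male replicate 1, and 19.7 and 19.98 in the workers. Of those 132 genes, 56 were called higher in males and 6 lower, and of the 93 higher in male replicate 1, 6 were called higher and 9 lower, where all genes tested gave 6.00% higher and 6.36% lower. These genes were picked on the male levels that the comparison uses, so nothing is read from these counts. Pearson's r across the 10263 genes was 0.983 between the workers, 0.918 between the males, and 0.788 to 0.840 between a male and a worker.

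Males and workers differed in 1269 genes, or 12.4% of those tested (limma, Benjamini-Hochberg adjusted p below 0.05). Of these, 616 were higher in males (6.00%) and 653 lower (6.36%). The median log2 difference, males minus workers, was 1.73 among the higher genes and -1.57 among the lower ones, against 0.07 over all genes tested. Differences of at least 4-fold were called for 237 higher and 177 lower genes, and differences of at least 16-fold for 34 and 54. The libraries of the groups did not overlap for any of the 1269 called genes. They did not overlap for 3294 tested genes with males above (32.1%) and 2821 with males below (27.5%).

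The number of calls depended on which genes were tested with them. With the filter applied over all 14 libraries instead, an alternative chosen after seeing the data, 12421 genes were tested and limma called 93 higher and 133 lower, and 224 of these 226 were among the 1269. The weight that limma gave to the variance trend shared by all genes was 10.1 degrees of freedom with the first filter and 3.15 with the second, beside 2 residual degrees of freedom per gene. Median scaling of the libraries turned the split to 407 higher and 724 lower, and quantile scaling 559 and 874, so that higher genes made up 36.0% and 39.0% of calls in place of 48.5%. Without worker replicate 1 or 2 the calls were 230 higher and 328 lower, or 235 and 213. Without male replicate 1 or 2 they were 1431 and 2230, or 1981 and 1125, where the lone male was assumed to vary like the workers.

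**Figure D1:**
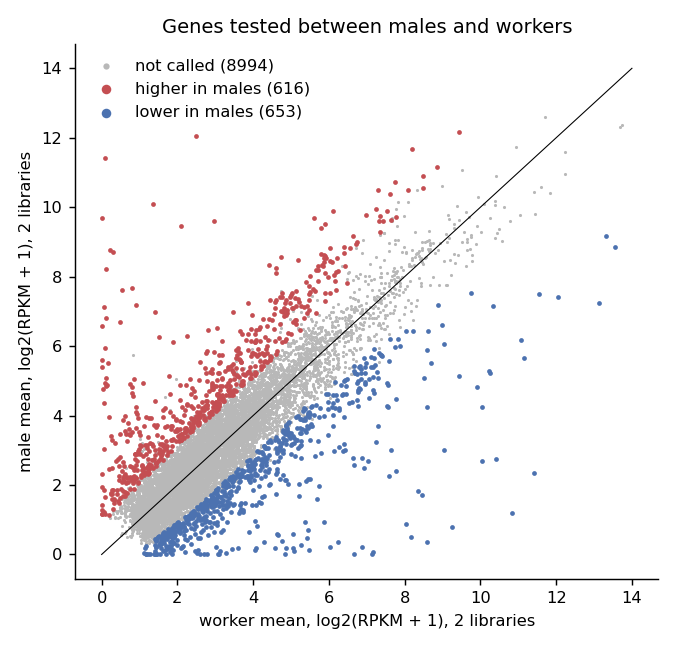
Mean level of each of the 10263 tested genes in workers (horizontal) and males (vertical), each the mean over 2 libraries of log2(RPKM + 1), with called genes in colour and the line of equality. The 616 genes higher in males lie above the line and the 653 lower ones below it, with 34 and 54 of them at least 16-fold away.

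Most genes were detected in both groups. All 4 libraries reached an RPKM of 1 for 8587 genes, of which 470 were called higher in males and 419 lower. Another 237 genes reached it in both males and in neither worker, and 106 of them were called higher, and the reverse held for 322 genes, with 145 called lower. Both classes passed the filter only through the group in which they are high, so their counts of calls are a description and are not read against the 6.00% and 6.36% of all genes tested. Both worker libraries held 0 reads for 10 tested genes, whose male means ran from 1.23 to 839 RPKM. Both male libraries held 0 reads for 19 genes, with worker means from 1.24 to 149.9 RPKM. The same limit holds for these 29 genes. A count of 0 allows up to 3 reads, which at the median gene length of 1107 bases is 0.0986 to 0.238 RPKM in these libraries, for counting error only.

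The called genes held a sizeable part of the reads of the group in which they were higher. The 653 genes called lower in males held 26.3% and 29.8% of gene reads in the workers and 6.10% and 3.90% in the males. The 616 genes called higher held 14.3% and 21.5% of gene reads in males and 2.11% and 2.32% in workers. Among the 20 most abundant genes of workers, at 1836 to 14563 RPKM, 9 were called lower in males and 11 were not called. Among the 20 most abundant of males, at 1709 to 7822 RPKM, 8 were called higher and 12 were not called. The 100 most abundant genes of each group shared 47, or 47.0% of either list. Among the 100 most abundant of workers, 26 were called lower, 2 higher and 72 not called, and among the 100 most abundant of males 33 were called higher, 1 lower and 66 not called. The shares and counts describe genes picked by levels in the same 4 libraries and carry no test.

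HSALG009060.1 had the highest male level among HSALG gene models called at least 4-fold higher. It stood at 2104 and 8448 RPKM in male replicates 1 and 2, and at 5.53 and 3.85 RPKM in worker replicates 1 and 2. The log2 difference was 9.55 ± 0.57 (SE, n = 2 per group; limma, adjusted p = 3.43e-07). The male libraries were far above the workers although they differed 4-fold from each other. In the other 10 libraries its level ran from 1.13 to 10.1 RPKM, so males were the only group above that range.

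HSALG004095.2 was abundant in every library and higher in males. Its levels were 2893 and 7322 RPKM in males and 724 and 667 RPKM in workers. The log2 difference was 2.73 ± 0.62 (SE, n = 2 per group; limma, adjusted p = 0.0154). The call was lost in 5 of 17 alternatives, among them without either worker library (limma, adjusted p = 0.482 without replicate 1 and 0.607 without replicate 2) and under median scaling (0.0730). The other 10 libraries held 178 to 988 RPKM, below both males.

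HSALG004217.2 had the highest worker level among HSALG gene models called at least 4-fold lower in males. It stood at 10461 and 13896 RPKM in workers and at 565 and 383 RPKM in males. The log2 difference was -4.69 ± 0.60 (SE, n = 2 per group; limma, adjusted p = 0.00039), and the call was lost in 1 of 17 alternatives, with the filter over all 14 libraries (0.0510). Both males were more than 10-fold below both workers. Instar 1 larvae held 2562 and 3857 RPKM and instar 4 larvae 118 and 1094 RPKM, whereas the embryo and pupa libraries held 0.667 to 3.39 RPKM. The males therefore lay below the workers and far above the pupae.

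HSALG005185.1 was likewise high in larvae and workers, with a wide spread in males. Workers held 10605 and 9778 RPKM, and males 2476 and 135 RPKM. The log2 difference was -4.13 ± 1.03 (SE, n = 2 per group; limma, adjusted p = 0.0231). That call was lost in 8 of 17 alternatives, including median scaling (0.105), quantile scaling (0.240), and leaving out worker replicate 1 (0.0875) or 2 (0.103). Instar 4 larvae held 8677 and 8602 RPKM, close to the workers, and instar 1 larvae 7835 and 3361 RPKM. Late pupae held 31.0 and 6.81 RPKM, embryos 30.4 and 172.5 RPKM, and the early pupae 42.3 and 1035 RPKM.

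**Figure D2:**
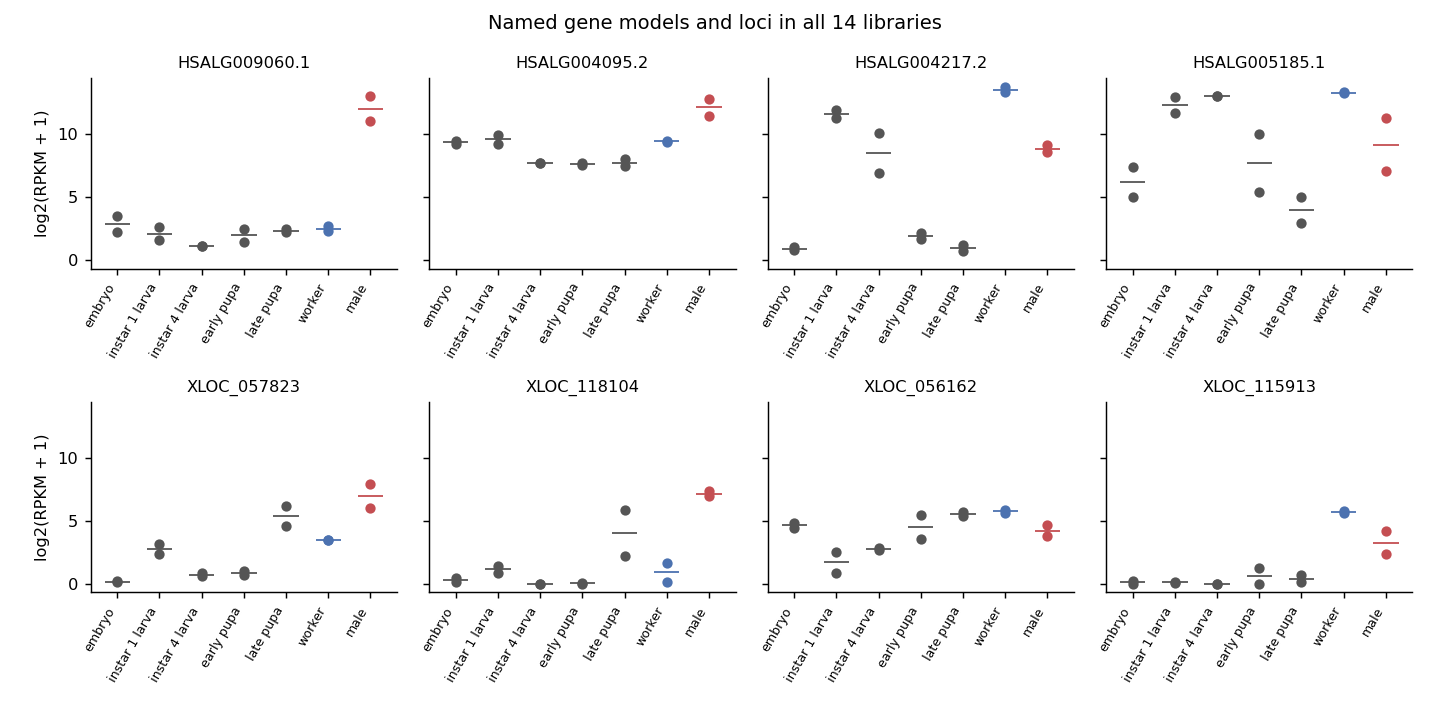
Level, as log2(RPKM + 1), of 4 HSALG gene models and 4 XLOC loci in each of the 14 libraries, with points for libraries and bars for the mean of 2. HSALG009060.1 and XLOC_118104 are highest in males, and HSALG004217.2 and HSALG005185.1 are highest in workers, with the males of HSALG004217.2 within the range of its instar 4 libraries and those of HSALG005185.1 on either side of the higher early pupa library.

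The 34 genes at least 16-fold higher in males had a median close to 0 at every other stage, although 13 of them reached an RPKM of 1 in 2 or more of the 10 other libraries. Their median level was 6.98 on the log2(RPKM + 1) scale in males, 0.27 in workers, and between 0.08 and 0.21 in each of the other 5 groups. The other 21 genes did not reach an RPKM of 1 in as many of these libraries, as was so for 259 of all 10263 genes tested. Of the 13, 5 were highest in instar 1 larvae and 4 in late pupae. Among all tested genes that reached this level there, 17.0% and 12.4% were. Higher in another stage than in both adult groups were 4 of the 34, beside 7923 of all 10263 genes tested. The levels in those 10 libraries played no part in choosing the 34 genes. Their adult levels did, and a gene low in workers and at every other stage could pass the filter only through the males. The 21 of 34 and the 4 of 34 are therefore a description and are not read against all genes tested. The 54 genes at least 16-fold lower in males had another distribution, with a median of 7.43 in workers, 1.75 in males, 2.79 in instar 4 larvae and 2.62 in instar 1 larvae. In embryos, early pupae and late pupae their medians were 0.73, 1.19 and 0.56. Of the 54, 39 reached an RPKM of 1 in 2 or more of the 10 libraries (72.2%, against 97.5% of all tested genes). The highest level of these 39 was in instar 4 larvae for 15 (38.5%, against 5.61% of all). It was in instar 1 larvae for another 15 (38.5%, against 17.0%). Of the 54, 12 were higher in another stage than in both adult groups. Adult levels chose these 54 genes too, and a gene below an RPKM of 1 in both males could pass the filter only through the workers. The shares of the 54 and of the 39 are therefore a description as well, and are not read against all genes tested.

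The full sets of called genes differed from all tested genes in the stage of their highest level. Of the 616 genes higher in males, 556 reached an RPKM of 1 in 2 or more of the 10 other libraries (90.3%). Among those, the highest mean lay in instar 1 larvae for 186 (33.5%) and in embryos for 199 (35.8%), against 17.0% and 55.3% of all tested genes that did so. Of the 653 genes lower in males, 602 did so (92.2%), and 190 of them were highest in embryos (31.6%, against 55.3% of all). A further 121 were highest in instar 4 larvae (20.1%) and 111 in late pupae (18.4%), against 5.61% and 12.4% of all. Another 94 were highest in early pupae (15.6%, against 9.58% of all). The late pupa share was above that of all in the genes higher in males too, with 95 of the 556 (17.1%), and 53 of these were highest in early pupae (9.53%). Over 17 alternatives the share of the higher genes in instar 1 larvae ran from 24.6% to 46.5% and that of the lower genes in instar 4 larvae from 12.4% to 28.8%. Of the 132 genes at least 4-fold higher in male replicate 2, 43.9% were highest in instar 1 larvae. Of the 93 at least 4-fold higher in male replicate 1, 15.1% were, beside 16.9% of all 10263 genes tested. These shares count every gene of a set, whether or not it reached an RPKM of 1 in the other stages. The sets hold 56 and 6 genes called higher, where all genes tested gave 6.00%. They were picked on the male levels that the comparison uses, so the part of either male in the instar 1 share was not tested. The 10 most abundant genes made up 60.5% and 61.5% of the instar 4 reads in genes, so that the RPKM of other genes is lower there. Other groups shared this limit to a lesser and uneven degree. The 10 most abundant genes of each library held 14.1% and 58.8% in early pupae and 44.1% and 32.9% in late pupae. In the groups compared they held 27.2% and 22.1% in workers and 9.1% and 17.9% in males. The early pupa libraries lay far apart (r = 0.708). Across the tested genes the r of instar 4 libraries was 0.736 to 0.770 with workers and 0.638 to 0.650 with males, whereas instar 1 libraries had 0.647 to 0.693 with workers and 0.674 to 0.697 with males. These correlations across genes share library depth and gene set and carry no test.

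**Figure D3:**
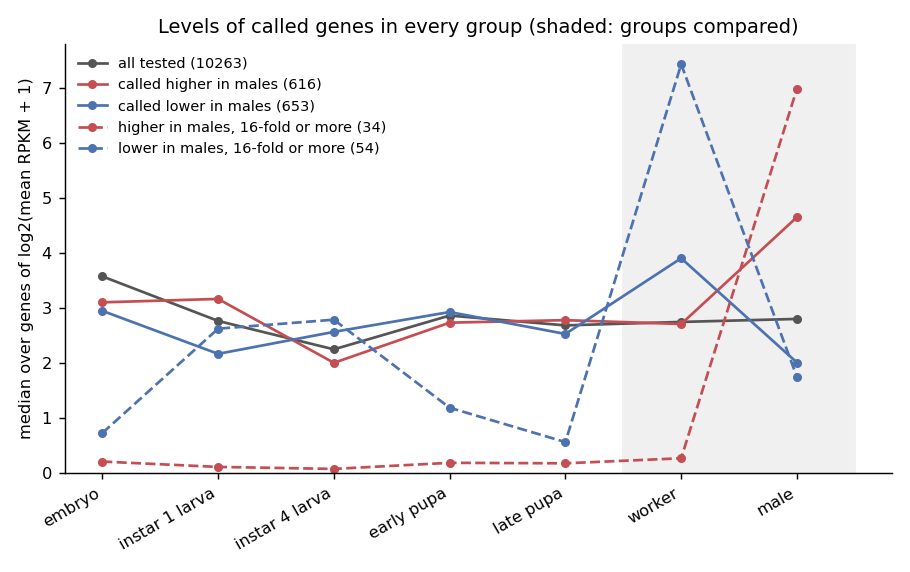
Median over genes of log2(mean RPKM + 1) in each of the 7 groups for all 10263 tested genes, the 616 called higher and 653 called lower in males, and the 34 and 54 of these at least 16-fold apart. The shaded groups chose the genes. The median of the 34 strongest male genes lies between 0.08 and 0.21 in the 5 unshaded groups, and that of the 54 strongest worker genes rises to 2.62 and 2.79 in the larvae.

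Loci with XLOC identifiers were called higher in males more often than lower. Of 438 such loci 306 passed the filter, of which 45 were called higher in males (14.7%) and 7 lower (2.29%), beside 571 (5.73%) and 646 (6.49%) of the 9957 HSALG gene models. Their median log2 difference was 0.49, against 0.05 in HSALG models, and 227 of the 306 lay above 0 (74.2%, against 53.1%). Set against the worker mean, the median difference of XLOC loci was 0.70 in male replicate 1 and 0.25 in replicate 2, where HSALG models had 0.20 and -0.14. Median scaling gave 46 higher and 5 lower XLOC loci, and quantile scaling 61 and 6. With the filter over all 14 libraries 7 were called, each of them higher in males. Without worker replicate 1 or 2 there were 16 higher and 5 lower, or 13 and 3, and without male replicate 1 or 2 there were 61 and 34, or 135 and 11. Most XLOC lengths are not multiples of 3, unlike those of HSALG models, and the part of the gene models in this difference was not tested.

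**Figure D4:**
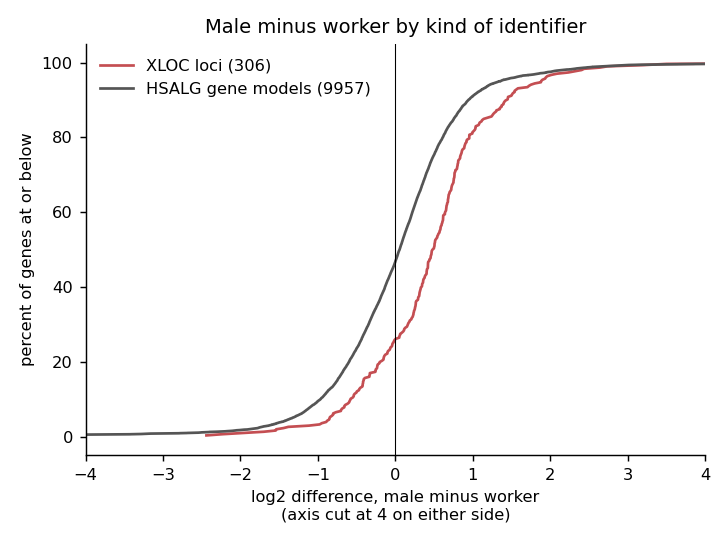
Cumulative share of the 306 XLOC loci and 9957 HSALG gene models by log2 difference, males minus workers, on log2(RPKM + 1). The XLOC curve lies to the right of the HSALG curve over the middle of the range, with medians of 0.49 and 0.05.

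XLOC_057823 and XLOC_118104 had the highest male levels among called XLOC loci at least 2-fold higher. XLOC_057823 stood at 62.5 and 248 RPKM in males and at 9.99 and 10.2 RPKM in workers, a log2 difference of 3.50 ± 0.52 (SE, n = 2 per group; limma, adjusted p = 0.00125). Its call was lost in 2 of 17 alternatives, median scaling (limma, adjusted p = 0.0568) and the filter over all 14 libraries (0.0792). XLOC_118104 stood at 168 and 123 RPKM in males and at 0.0875 and 2.21 RPKM in workers, where it held 4 and 64 reads. Its log2 difference was 6.27 ± 0.47 (SE, n = 2 per group; limma, adjusted p = 2.89e-06), called in all 17 alternatives. The groups did not overlap for either locus. Outside males, their highest levels were in late pupae, at 71.2 and 22.9 RPKM for XLOC_057823 and at 58.1 and 3.56 RPKM for XLOC_118104, in each case higher in late pupa replicate 1. The labels give no sex for the pupae.

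XLOC_056162 and XLOC_115913 had the highest worker levels among the 7 loci lower in males. XLOC_056162 stood at 57.6 and 49.6 RPKM in workers and at 13.0 and 23.8 RPKM in males, a log2 difference of -1.54 ± 0.38 (SE, n = 2 per group; limma, adjusted p = 0.0211). Its call was lost in 8 of 17 alternatives, both scalings and both fits without a worker library among them (limma, adjusted p up to 0.210). XLOC_115913 stood at 53.1 and 49.4 RPKM in workers and at 4.15 and 17.0 RPKM in males, a log2 difference of -2.44 ± 0.49 (SE, n = 2 per group; limma, adjusted p = 0.00826). The call was lost in 4 of 17 alternatives, both scalings among them (limma, adjusted p up to 0.118). XLOC_115913 stayed at or below 1.35 RPKM in the 10 libraries before adulthood, whereas XLOC_056162 reached 51.6 RPKM in late pupae.

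Gene models called higher in males were shorter than those called lower. The median length was 705 bases for 571 HSALG models higher in males, 1329 for 646 lower and 1107 for all 9955 with a resolved length. With these models in 5 classes of about equal size by length, the share called higher was 10.3% in the shortest and 1.86% in the longest, where all genes tested gave 6.00%. The share called lower did not rise steadily: from the shortest to the longest class it was 6.28%, 5.52%, 4.90%, 7.05% and 8.69%, against 6.36% of all genes tested. The median log2 difference, males minus workers, ran from 0.19 in the shortest class to -0.26 in the longest. Replicates also differed by length: from the shortest to the longest class, male replicate 1 minus 2 moved from 0.27 to 0.42, and worker replicate 1 minus 2 from -0.15 to -0.27. RNA quality is not given in the labels, and the part of library preparation in this relation was not tested.

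**Figure D5:**
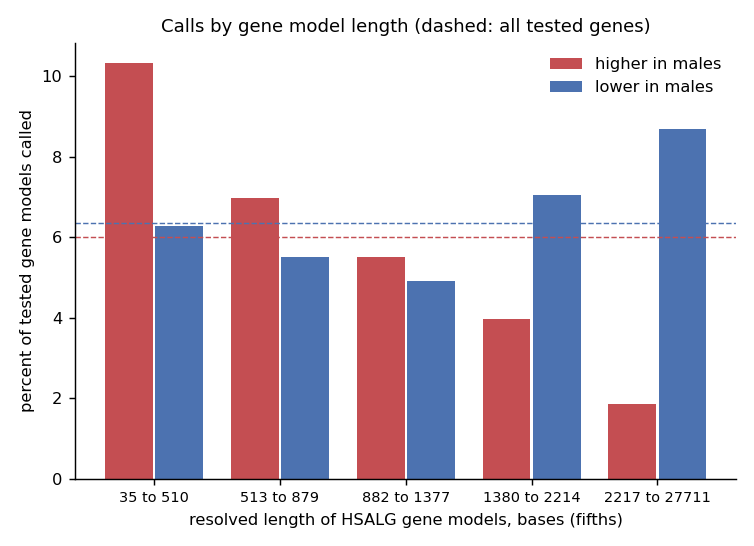
Percent of HSALG gene models called higher or lower in males in 5 classes of resolved length (horizontal, in bases), with dashed lines for all genes tested, 6.00% higher and 6.36% lower. The share higher in males drops from 10.3% to 1.86% with length. The share lower is 6.28% in the shortest class, 4.90% in the middle class and 8.69% in the longest.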

How the data were processed

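Poly(A) RNA from whole bodies was sequenced from strand-specific libraries (random hexamer priming, dUTP in the second strand), per the labels' protocols. The authors deposited RPKM values. STAR 2.5.0b and DESeq2 appear, without a stated use, in the submitters' processing notes. The sources used here do not give the counting tool, build or gene lengths behind the RPKM.

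The values were taken as log2(RPKM + 1) in the 4 libraries and fitted in R 4.3.3 by limma 3.58.1, which used an intensity trend and no block. Tests were two-sided, with Benjamini-Hochberg adjustment over 10263 genes. An exact permutation test of 2 against 2 libraries cannot go below 0.333. Whole reads were resolved by finding 1 length per gene that makes its values in all 14 libraries whole within a relative tolerance of 1e-05, which succeeded for 18541 of 18543 genes above 0. This step and the fit were tested on simulated data in which males and workers had the same spread, unlike those here. The simulation therefore does not show how often the fit calls falsely in these data. The reads carry no molecular identifiers, so they need not be independent molecules. HSALG lengths were multiples of 3 in 97.8% of models and are taken as coding lengths, XLOC lengths in 36.3%.

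Among called genes without overlap, the 2 HSALG models (at least 4-fold) and the 2 XLOC loci (at least 2-fold) in each direction with the highest mean in the higher group are named. The comparison, this rule and the alternatives were chosen with earlier results of these data known. No sequence is shown, since no file pairs one with an identifier. Descriptions and figures used Python 3.11.15 (matplotlib 3.10.9, pandas 2.3.3, numpy 2.4.6, scipy 1.17.1).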

Additional observations from a re-analysis of the deposited data

How the results depend on the processing

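Over 17 alternatives, 25 of 51 counts of calls stayed within 1.5 times and 26 moved. The 8 named genes gave 136 such values, of which 108 remained called in the same direction, 28 were no longer called and 0 reversed. Counts that moved are given as genes higher in males, genes lower in males and XLOC loci called. With no filter, which tests 16250 genes, they were 222, 264 and 22. At a mean RPKM of 5, which tests 5776 genes, they were 390, 348 and 25. With all 14 libraries in the fit they were 267, 197 and 27, and with the filter over all 14 libraries, chosen after seeing the data, 93, 133 and 7. Median scaling gave 407 higher, and the 12 libraries without early pupae 364 lower. Leaving out 1 library gave 230 (without worker replicate 1) to 1981 (without male replicate 2) higher, 213 (without worker replicate 2) to 2230 (without male replicate 1) lower, and between 16 XLOC loci (without worker replicate 2) and 146 (without male replicate 2). Some settings by construction take in fewer or more libraries or genes, and the cause of these shifts was not tested.

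Replicate numbers have no stated meaning in the labels. The deviations of same-numbered male and worker libraries correlated at 0.01 across genes, and the libraries were treated as unpaired. With a replicate block there were 530 higher, 503 lower and 39 XLOC loci. Library weights, 1.87 for workers and 0.534 for males, gave 885 and 898. The depth of male replicate 2 limits low genes most. There 1 read is worth 0.118 RPKM at 747 bases, the median length of all genes with a resolved length, which is shorter than that of the tested genes.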

Other observations

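The 2 most abundant genes of male replicate 2 were the pair HSALG024609.1 and HSALG024608.1, named here after their values were seen. HSALG024609.1 stood at 13597 RPKM in male replicate 2, 2047 in male replicate 1, and 19566 and 9560 in the workers. HSALG024608.1 stood at 11429 and 2258 RPKM in male replicates 2 and 1, and at 17950 and 9822 in the workers. The pair moved together, and male replicate 2 lay among the workers while male replicate 1 lay well below them. Neither gene was called, with log2 differences, males minus workers, of -1.37 ± 0.95 and -1.39 ± 0.90 (SE, n = 2 per group; limma, adjusted p = 0.369 and 0.334). They took 4.12% and 3.46% of gene reads in male replicate 2 and 0.677% and 0.747% in male replicate 1. In late pupae HSALG024609.1 also differed between libraries, at 6154 and 1962 RPKM.

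The 132 genes at least 4-fold higher in male replicate 2 than in replicate 1 were highest, outside adults, in instar 1 larvae for 58 (43.9%) and in late pupae for 27 (20.5%). The 93 genes at least 4-fold higher in male replicate 1 were highest in instar 1 larvae for 14 (15.1%) and in late pupae for 25 (26.9%). Of all 10263 genes tested, 16.9% were highest in instar 1 larvae and 12.9% in late pupae, so the first share of the 93 genes is near that of all genes. Levels in those stages played no part in choosing these genes. The labels give no age or condition that separates the males.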
